A study of Caenorhabditis elegans with 72 samples.

Results

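The methionine cycle and the folate-dependent one-carbon cycle supply cells with methionine and with S-adenosylmethionine (SAM), the donor for most methylation reactions. Of their enzymes, 10 were taken by name: *metr-1*, *mtrr-1*, *sams-1*, *sams-3*, *sams-4*, *ahcy-1*, *cbs-1*, *cth-1*, *cth-2* and *mel-32*. They stand among 46624 genes of the expression table, all 10 matched by gene ID and all annotated as protein-coding. RNA was sequenced from whole *Caenorhabditis elegans* at late L4, the last larval stage, raised on *E. coli* OP50. Mutants of *malt-1* (the paracaspase MALT-1), of *ilc-17.1* (the IL-17 cytokine) and of *nfki-1* (an IκB homolog) are each defective in a component of the worm's IL-17 signaling, and all carry the *npr-1* mutation as well. They were set against animals with the *npr-1* mutation alone, so that every group is an *npr-1* mutant and animals with intact *npr-1* were not analysed here. The labels name the strain background AX204 for all 4 genotypes, give no alleles, and list 72 samples, 18 of each genotype, with the animals of 8 to 10 plates pooled for a replicate. The study's methods give fewer biological replicates than labelled samples, and fewer for *ilc-17.1* mutants than for the other genotypes. The labelled samples are therefore not a count of independent replicates.

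The table holds 1 FPKM (fragments counted for a gene, divided by its length in kilobases and by the depth of the library) for each genotype in each comparison and 0 columns of single samples. No SD, n, library depth or test from single samples can therefore be given, and the authors' own test columns were not used, so that differences between genotypes are described without replicate error. A gene is called past the fold where the log2 ratio of the FPKM values is at least 0.25 in size and the FPKM is at least 1 in the second genotype of the comparison. These are the fold and expression minima that the study's methods used, here without their q-value. Each count of enzymes past the fold is set beside the share of all genes past it. The 3 mutants share the *npr-1* animals, so their ratios are not independent of each other.

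In the cycle, methionine synthase (METR-1) makes methionine from homocysteine with vitamin B12 as cofactor, and methionine synthase reductase (MTRR-1) keeps that cofactor active. SAM synthases (SAMS) turn methionine into SAM, and in *C. elegans* SAM feeds the synthesis of phosphatidylcholine as well as methylation of histones and other proteins. S-adenosylhomocysteine hydrolase (AHCY-1) clears the product of the methyltransferases and returns homocysteine. Homocysteine may instead leave the cycle through cystathionine beta-synthase (CBS-1) and cystathionine gamma-lyase (CTH-1 and CTH-2) to form cysteine. MEL-32 is serine hydroxymethyltransferase, which loads one-carbon units from serine onto folate.

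The enzymes spanned a wide range of transcript levels. *ahcy-1* was highest, with 3308 FPKM in *malt-1*, 3242 in *ilc-17.1* and 3310 FPKM in *nfki-1* mutants, and a mean over the 3 comparisons of 3471 FPKM in *npr-1* animals, rank 84 of all genes. In *npr-1* animals *mel-32* followed with 784 FPKM (rank 262), *sams-1* with 554 FPKM (rank 341) and *metr-1* with 336 FPKM (rank 550). Next came *mtrr-1* with 217 FPKM and *cth-2* with 165 FPKM, ahead of *sams-4* with 80.3 and *sams-3* with 59.6 FPKM. *cbs-1* was lowest of the 9 enzymes with a value, at 10.9 FPKM. All 9 were thus above 1 FPKM, and 6 of them were among the 1572 genes of at least 100 FPKM. The order was the same in all 3 mutants, although in *ilc-17.1* mutants *sams-1* (481 FPKM) and *metr-1* (478 FPKM) stood nearly level.

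**Figure D1:**
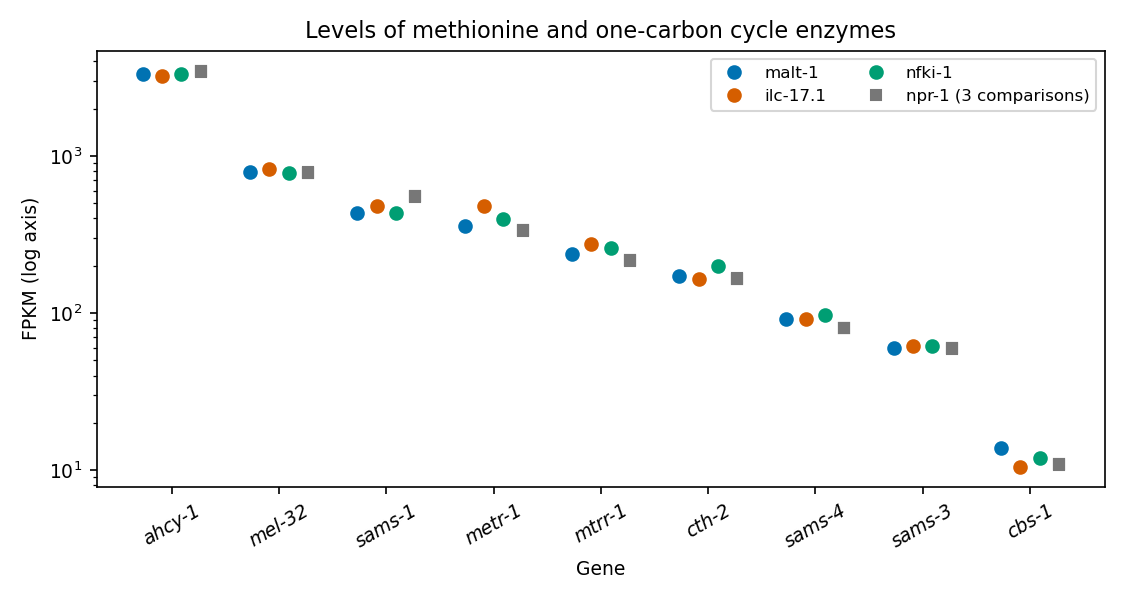
FPKM on a log axis for the 9 enzymes above 0, ordered by level in *npr-1* animals. Circles are the 3 mutants and grey squares are *npr-1* animals, 1 square for each comparison. Genotypes differ little beside the span between genes, which runs from 10.9 FPKM for *cbs-1* to 3471 FPKM for *ahcy-1* in *npr-1* animals.

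*cth-1* was listed at 0 FPKM in every genotype and comparison. The same holds for 3264 of 19701 protein-coding genes (16.6%), and for 1 of 78 ribosomal protein genes of the *rpl* and *rps* families, which every cell uses. A listed 0 in this table can thus be a missing estimate, and no level or ratio is given for *cth-1*.

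Few of the 9 enzymes passed the fold in any mutant. Which enzymes passed varied, but the fold is a cut without replicate error, and a difference in calls is not a difference between mutants. In *nfki-1* set directly against *malt-1* mutants 0 of 9 passed it. In *malt-1* mutants *cbs-1* was higher and *sams-1* was lower than in *npr-1* animals, 1 of 9 each way, beside 19.2% of all genes past the fold upwards and 15.1% downwards. In *ilc-17.1* mutants *metr-1* and *mtrr-1* were higher and none was lower, 2 of 9 and 0 of 9, beside 24.5% of all genes higher and 22.8% lower. In *nfki-1* mutants *sams-4* and *cth-2* were higher and *sams-1* was lower, 2 of 9 and 1 of 9, beside 26.1% of all genes higher and 20.8% lower. As deposited, the share of the 9 enzymes in each of these counts was below the share over all genes. That reading depends on the genes compared and on the scaling, as described next. Genes at 0 in a mutant, between 239 and 254 for each mutant, count as lower in the shares over all genes. The median log2 ratio of the 9 was 0.08 in *malt-1*, 0.05 in *ilc-17.1* and 0.13 in *nfki-1* mutants, against medians over all genes of 0.00 in *malt-1*, 0.02 in *ilc-17.1* and 0.01 in *nfki-1* mutants.

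**Figure D2:**
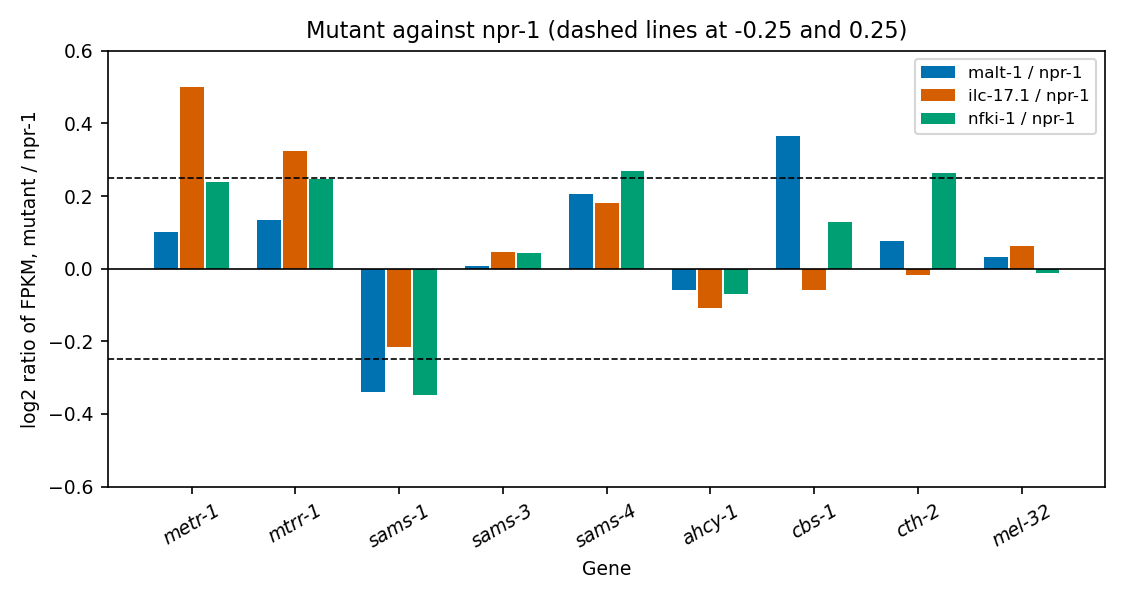
Log2 ratio of FPKM of each mutant over *npr-1* animals for each enzyme, ordered by role, with dashed lines at -0.25 and 0.25. *metr-1*, *mtrr-1*, *sams-3* and *sams-4* lie above 0 and *sams-1* and *ahcy-1* below 0 in all 3 mutants. The farthest is *metr-1* in *ilc-17.1* mutants at 0.499.

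The scaling between genotypes bears on these ratios. Summed over all genes, FPKM in *ilc-17.1* mutants came to 89.01% of the sum in *npr-1* animals, in *nfki-1* mutants to 93.1%, and in *malt-1* mutants to 100.4%. Abundant genes tended lower where the sum was lower. Among genes of at least 100 FPKM in *npr-1* animals the median log2 ratio was -0.18 in *ilc-17.1* and -0.15 in *nfki-1* mutants, and -0.03 in *malt-1* mutants. Past the fold, 7.90% of these abundant genes were higher and 38.5% lower in *ilc-17.1* mutants, 10.6% higher and 28.3% lower in *nfki-1* mutants, and 7.77% higher and 8.92% lower in *malt-1* mutants. Of the 9 enzymes, 6 belong to these abundant genes. Among those 6, *metr-1* and *mtrr-1* were higher in *ilc-17.1* and *cth-2* in *nfki-1* mutants, and none was higher in *malt-1* mutants. Only *sams-1* was lower, in *malt-1* and *nfki-1* mutants. The other enzymes past the fold, *cbs-1* in *malt-1* and *sams-4* in *nfki-1* mutants, lie below 100 FPKM. A share of all 9 is therefore not like the shares of the abundant genes. When FPKM was rescaled to equal sums, a setting chosen after seeing the data, every log2 ratio moved up by 0.17 in *ilc-17.1* and by 0.10 in *nfki-1* mutants, and by -0.01 in *malt-1* mutants. The split over all genes then became 41.0% higher and 11.9% lower in *ilc-17.1* mutants and 34.4% higher and 13.01% lower in *nfki-1* mutants, and the median over all genes moved to 0.18 in *ilc-17.1* and to 0.11 in *nfki-1* mutants. The enzymes past the fold were then 3 of 9 higher in *ilc-17.1* mutants, below the share of all genes, and 4 of 9 higher in *nfki-1* mutants, above it, with 0 of 9 lower in both. The table does not tell which scaling is nearer the amounts per animal.

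**Figure D3:**
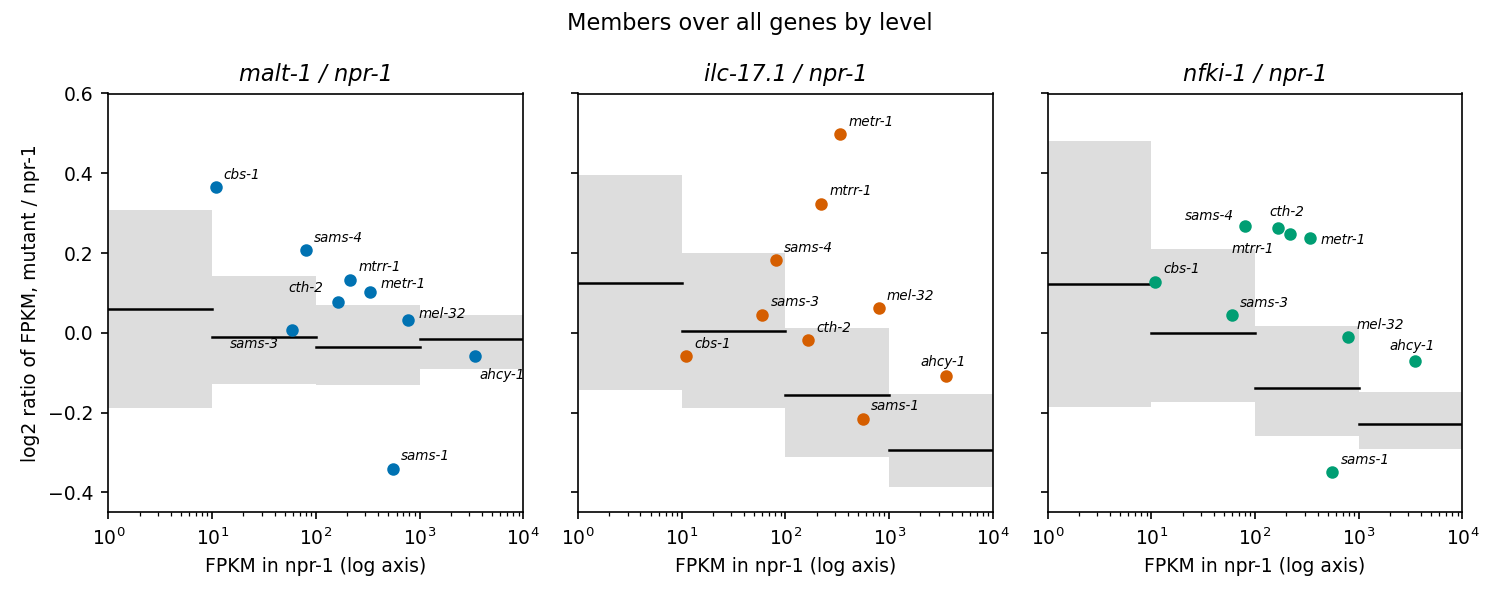
Log2 ratio of FPKM, mutant over *npr-1* animals, against FPKM in *npr-1* animals on a log axis, 1 panel for each mutant. Points are the 9 enzymes. Black lines are medians and grey boxes the middle 50% of all genes in 4 ranges of level, leaving out genes at 0 in the mutant. In *ilc-17.1* and *nfki-1* mutants the medians of the ranges from 100 FPKM up lie below 0, while *metr-1* and *mtrr-1* lie above the boxes in all 3 panels.

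Both genes of methionine synthesis were higher by value in each mutant. *metr-1* (WBGene00010988, chromosome II, bases 10926561 to 10931075, in the table's coordinates, whose genome build is not given in the sources used here) encodes the vitamin B12-dependent methionine synthase. It had 358 FPKM in *malt-1* mutants against 334 FPKM in *npr-1* animals, 478 FPKM in *ilc-17.1* mutants against 338 FPKM in *npr-1* animals, and 397 FPKM in *nfki-1* mutants against 336 FPKM in *npr-1* animals. The log2 ratios were 0.10 in *malt-1*, 0.499 in *ilc-17.1* and 0.24 in *nfki-1* mutants, so that only the *ilc-17.1* mutants passed the fold. In that comparison 19.04% of all genes, and 10.4% of the abundant ones, were as far from 0 in either direction as *metr-1*.

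*mtrr-1* (WBGene00006510, chromosome II, bases 9285932 to 9289136) encodes the reductase partner of METR-1. Its FPKM was 237 in *malt-1* mutants against 216 in *npr-1* animals, 274 in *ilc-17.1* mutants against 219 in *npr-1* animals, and 258 in *nfki-1* mutants against 217 in *npr-1* animals. The log2 ratios were 0.13 in *malt-1*, 0.32 in *ilc-17.1* and 0.248 in *nfki-1* mutants, the last just short of the fold. Both genes thus had their highest level in *ilc-17.1* mutants. The ratio of *metr-1* to *mtrr-1* FPKM was 1.75 in *ilc-17.1* mutants, 1.51 in *malt-1* and 1.54 in *nfki-1* mutants, and 1.55 in *npr-1* animals. Under equal sums *metr-1* stood at 0.10 in *malt-1*, 0.67 in *ilc-17.1* and 0.34 in *nfki-1* mutants. *mtrr-1* then stood at 0.13 in *malt-1*, 0.49 in *ilc-17.1* and 0.35 in *nfki-1* mutants, so that both passed the fold in *nfki-1* mutants as well.

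The SAM synthases did not move as one. *sams-1* (WBGene00008205, chromosome X, bases 11965962 to 11969784) is the SAM synthase best known for its part in lipid metabolism and lifespan in worms. It had 435 FPKM in *malt-1* mutants against 550.1 FPKM in *npr-1* animals, 481 FPKM in *ilc-17.1* mutants against 558 FPKM in *npr-1* animals, and 435 FPKM in *nfki-1* mutants against 554 FPKM in *npr-1* animals. The log2 ratios were -0.34 in *malt-1*, -0.21 in *ilc-17.1* and -0.35 in *nfki-1* mutants, past the fold in *malt-1* and *nfki-1* mutants. As far from 0 were 23.5% of all genes and 9.76% of abundant genes in *malt-1* mutants. The shares for *nfki-1* mutants were 34.2% of all and 20.1% of abundant genes. In *ilc-17.1* mutants the *sams-1* ratio lay near the median of abundant genes, -0.18. Under equal sums it was -0.35 in *malt-1*, -0.05 in *ilc-17.1* and -0.246 in *nfki-1* mutants, so that past the fold there remained only the value of *malt-1* mutants.

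*sams-4* (WBGene00015540, chromosome IV, bases 5839387 to 5846398) went the other way from *sams-1*. It had 92.0 FPKM in *malt-1* mutants against 79.7 FPKM in *npr-1* animals, 91.7 FPKM in *ilc-17.1* mutants against 80.8 FPKM in *npr-1* animals, and 96.8 FPKM in *nfki-1* mutants against 80.4 FPKM in *npr-1* animals. Its log2 ratios were 0.21 in *malt-1*, 0.18 in *ilc-17.1* and 0.27 in *nfki-1* mutants, and 0.20 in *malt-1*, 0.35 in *ilc-17.1* and 0.37 in *nfki-1* mutants under equal sums. *sams-3* (WBGene00015538, chromosome IV, bases 5848657 to 5859976) was nearly level, at 59.5 FPKM in *malt-1*, 61.9 in *ilc-17.1* and 61.5 FPKM in *nfki-1* mutants, and between 59.1 and 60.0 FPKM in *npr-1* animals. Its log2 ratios were 0.01 in *malt-1*, 0.05 in *ilc-17.1* and 0.04 in *nfki-1* mutants, and 0.00 in *malt-1*, 0.21 in *ilc-17.1* and 0.15 in *nfki-1* mutants under equal sums. The *sams-3* and *sams-4* genes are close copies on opposite strands, with 2258 bases between their loci, and the table's loci hold 17 genes (*sams-3*) and 12 genes (*sams-4*). Reads matching both copies could have been shared between them, and the split of their values is uncertain. Their summed FPKM was 151 in *malt-1* mutants against 139 in *npr-1* animals, 154 in *ilc-17.1* mutants against 141 in *npr-1* animals, and 158 in *nfki-1* mutants against 140.0 in *npr-1* animals.

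With *sams-5*, the remaining SAM synthase gene, the family summed to 649 FPKM in *malt-1* mutants against 739 FPKM in *npr-1* animals. The sums were 681 FPKM in *ilc-17.1* mutants against 749.8 FPKM in *npr-1* animals, and 655 FPKM in *nfki-1* mutants against 745 FPKM in *npr-1* animals. *sams-1* made up 66.9% of the sum in *malt-1*, 70.6% in *ilc-17.1* and 66.4% in *nfki-1* mutants, against 74.4% in *npr-1* animals. These shares do not depend on a uniform scaling between genotypes, but ratios also varied with level. For all genes of 100 to 1000 FPKM the median log2 ratio was -0.03 in *malt-1*, -0.16 in *ilc-17.1* and -0.14 in *nfki-1* mutants. For those of 10 to 100 FPKM it was -0.01 in *malt-1* and 0.00 in both other mutants. *sams-1* lies in the upper range and *sams-3*, *sams-4* and *sams-5* in the lower. The part of this in the shares was not tested. The ratio of *metr-1* to *sams-1* FPKM, both in the upper range, was 0.825 in *malt-1*, 0.995 in *ilc-17.1* and 0.911 in *nfki-1* mutants, against 0.607 in *npr-1* animals. In each mutant there was thus more *metr-1* transcript for each *sams-1* transcript than in *npr-1* animals.

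**Figure D4:**
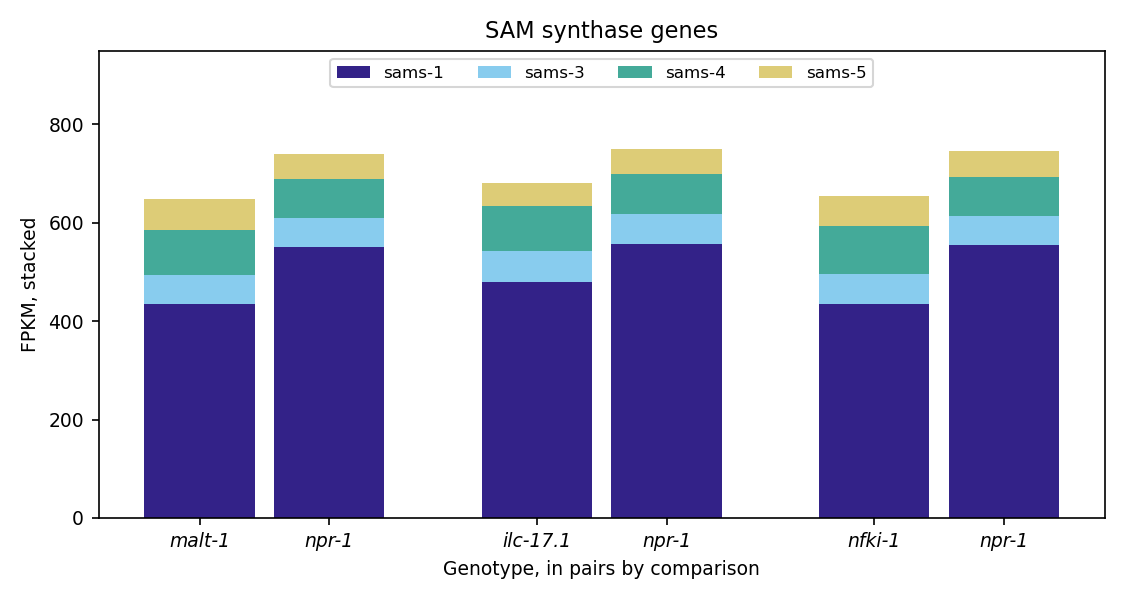
Stacked FPKM of the SAM synthase genes *sams-1*, *sams-3*, *sams-4* and *sams-5*, with each mutant left of the *npr-1* animals of the same comparison. The *sams-1* segment is shorter in each mutant, and the stacks reach 649 FPKM in *malt-1*, 681 in *ilc-17.1* and 655 in *nfki-1* mutants against 739 to 749.8 FPKM in *npr-1* animals.

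*ahcy-1* (WBGene00019322, chromosome I, bases 6836375 to 6838140), which encodes the hydrolase that follows methyl transfer, stayed inside the fold. Its FPKM was 3308 in *malt-1* mutants against 3446 in *npr-1* animals, 3242 in *ilc-17.1* mutants against 3495 in *npr-1* animals, and 3310 in *nfki-1* mutants against 3472 in *npr-1* animals. The log2 ratios were -0.06 in *malt-1*, -0.11 in *ilc-17.1* and -0.07 in *nfki-1* mutants. Their sign depends on the scaling, since under equal sums they were -0.06 in *malt-1*, 0.06 in *ilc-17.1* and 0.03 in *nfki-1* mutants. Genes of 1000 FPKM or more in *npr-1* animals had median log2 ratios of -0.02 in *malt-1*, -0.29 in *ilc-17.1* and -0.23 in *nfki-1* mutants, so that *ahcy-1* lay above the median of genes of its level in *ilc-17.1* and *nfki-1* mutants and below it in *malt-1* mutants.

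*cbs-1* and *cth-2*, which open and close the route from homocysteine to cysteine, each passed the fold in a different mutant. Neither passed it when *nfki-1* mutants were set directly against *malt-1* mutants. *cbs-1* (WBGene00013866, chromosome X, bases 10054281 to 10057524) had 13.9 FPKM in *malt-1* mutants against 10.8 FPKM in *npr-1* animals, 10.5 FPKM in *ilc-17.1* mutants against 10.9 FPKM in *npr-1* animals, and 11.9 FPKM in *nfki-1* mutants against 10.9 FPKM in *npr-1* animals. Its log2 ratios were 0.36 in *malt-1*, -0.06 in *ilc-17.1* and 0.13 in *nfki-1* mutants, and the negative sign in *ilc-17.1* mutants turned to 0.11 under equal sums. At this level the ratio of *malt-1* mutants is a difference of few FPKM, and 21.4% of all genes were as far from 0.

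*cth-2* (WBGene00022856, chromosome II, bases 7055287 to 7058014) had 173 FPKM in *malt-1* mutants against 164 FPKM in *npr-1* animals, 164 FPKM in *ilc-17.1* mutants against 166 FPKM in *npr-1* animals, and 198 FPKM in *nfki-1* mutants against 165 FPKM in *npr-1* animals. The log2 ratios were 0.08 in *malt-1*, -0.02 in *ilc-17.1* and 0.26 in *nfki-1* mutants, and 0.07 in *malt-1*, 0.15 in *ilc-17.1* and 0.37 in *nfki-1* mutants under equal sums. Only *nfki-1* mutants passed the fold, where 44.9% of all genes were as far from 0. Its locus in the table overlaps another annotated gene. The ratio of *cth-2* to *cbs-1* FPKM, free of a uniform scaling, was 12.4 in *malt-1*, 15.6 in *ilc-17.1* and 16.7 in *nfki-1* mutants, against 15.2 in *npr-1* animals.

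*mel-32* (WBGene00003214, chromosome III, bases 6440145 to 6443000), the entry of serine carbon into the folate cycle, was among the steadiest of the enzymes. It had 796 FPKM in *malt-1* mutants against 778 FPKM in *npr-1* animals, 824 FPKM in *ilc-17.1* mutants against 789 FPKM in *npr-1* animals, and 778 FPKM in *nfki-1* mutants against 784 FPKM in *npr-1* animals. The log2 ratios were 0.03 in *malt-1*, 0.06 in *ilc-17.1* and -0.01 in *nfki-1* mutants, and 0.03 in *malt-1*, 0.23 in *ilc-17.1* and 0.09 in *nfki-1* mutants under equal sums. *cth-1* (WBGene00009048, chromosome V, bases 16100627 to 16102750), the other lyase gene, has no value, as above.

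Setting the mutants against each other uses the same estimates, rescaled by up to 1.02-fold, and adds no independent measurement. In *ilc-17.1* against *malt-1* mutants *metr-1* was higher, with 479 FPKM against 363 FPKM (log2 ratio 0.40), and *cbs-1* was lower, with 10.5 FPKM against 14.1 FPKM (log2 ratio -0.42). These are 1 of 9 enzymes each way, beside 19.6% of all genes higher and 21.5% lower. In *nfki-1* against *malt-1* mutants 0 of 9 enzymes passed the fold in either direction, beside 17.12% of all genes higher and 14.3% lower. The farthest there was *cbs-1*, with 11.9 FPKM in *nfki-1* against 14.03 FPKM in *malt-1* mutants (log2 ratio -0.24). In *nfki-1* against *ilc-17.1* mutants *cth-2* was higher, with 202 FPKM against 165 FPKM (log2 ratio 0.29), 1 of 9 enzymes beside 18.3% of all genes. None was lower, beside 17.8% of all genes, with *metr-1* just inside the fold at 404 FPKM in *nfki-1* against 481 FPKM in *ilc-17.1* mutants (log2 ratio -0.249).

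Other genes of these pathways were followed in lists of 46 names, of which 43 matched the table and 35 had at least 1 FPKM in *npr-1* animals. Past the fold, 5 of the 35 were higher and 4 lower in *malt-1* mutants, 4 were higher and 6 lower in *ilc-17.1* mutants, and 6 were higher and 6 lower in *nfki-1* mutants. As deposited, all of these lie, as shares of the 35, below the shares over all genes given above. That reading too depends on the genes compared and on the scaling. In *malt-1* mutants the list had 14.3% higher and 11.4% lower, above the 7.77% and 8.92% of abundant genes. In the other mutants its share higher was above that of abundant genes and its share lower was below it. The lists hold genes on both sides of 100 FPKM. The 3 names listed for serine synthesis did not match.

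Among 8 genes of vitamin B12 handling and of propionate breakdown, the other B12-dependent route, none was higher past the fold, and 3 were lower in *malt-1*, 2 in *ilc-17.1* and 2 in *nfki-1* mutants. The share was 37.5% of the list in *malt-1* mutants, beside 15.1% of all genes. The 2 of 8 in *ilc-17.1* and in *nfki-1* mutants lie near the 22.8% and 20.8% of all genes there. *pccb-1*, a subunit of propionyl-CoA carboxylase, had log2 ratios of -0.34 in *malt-1*, -0.34 in *ilc-17.1* and -0.36 in *nfki-1* mutants. *mce-1*, methylmalonyl-CoA epimerase, had -0.26 in *malt-1*, -0.32 in *ilc-17.1* and -0.33 in *nfki-1* mutants. Equal sums would move both by the shifts given above. In *ilc-17.1* mutants both would then lie inside the fold. In *nfki-1* mutants *mce-1* would do so, while *pccb-1* would stay past it. *acdh-1*, an acyl-CoA dehydrogenase gene whose transcription is known to fall with dietary B12, was at 2954 FPKM in *malt-1* mutants against 2920 FPKM in *npr-1* animals (log2 ratio 0.02), with 0.02 in *ilc-17.1* and 0.11 in *nfki-1* mutants.

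Among 5 genes of SAM use and further SAM synthesis, 2 were higher in *malt-1*, 1 in *ilc-17.1* and 2 in *nfki-1* mutants, and none was lower. The share higher was 40% of the list for both *nfki-1* and *malt-1*, above the 26.1% and 19.2% of all genes. For *ilc-17.1* it was 20%, below the 24.5% of all genes. Of all genes, 20.8% were lower for *nfki-1*, 22.8% for *ilc-17.1* and 15.1% for *malt-1*, beside none of the list. With 5 genes, 1 gene is a share of 20.0%, so the shares of this list are coarse. *smd-1*, S-adenosylmethionine decarboxylase of polyamine synthesis, was past the fold in all 3 mutants, with log2 ratios of 0.27 in *malt-1*, 0.41 in *ilc-17.1* and 0.34 in *nfki-1* mutants. Its FPKM was 254 in *malt-1* mutants against 212 in *npr-1* animals, 286 in *ilc-17.1* mutants against 215 in *npr-1* animals, and 269.6 in *nfki-1* mutants against 213 in *npr-1* animals. *sams-5* had log2 ratios of 0.33 in *malt-1*, -0.13 in *ilc-17.1* and 0.27 in *nfki-1* mutants. The phosphoethanolamine methyltransferase genes *pmt-1* and *pmt-2*, which use SAM to make phosphatidylcholine, lay between -0.10 and 0.11 in all 3 mutants.

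Of 10 folate genes, 1 was higher and 0 lower past the fold in *malt-1* mutants, beside 19.2% of all genes higher and 15.1% lower. In *ilc-17.1* mutants 0 passed it, beside 24.5% of all genes higher and 22.8% lower. The *nfki-1* mutants had 2 higher (*folr-1* and *gldc-1*) and 2 lower (*folt-1* and *dhfr-1*). Each is 20% of the list, below the 26.1% of all genes higher and near the 20.8% lower. The median log2 ratios were 0.00 in *malt-1*, -0.03 in *ilc-17.1* and -0.02 in *nfki-1* mutants. *gcsh-1*, a glycine cleavage system H protein gene, had log2 ratios of 0.32 in *malt-1*, -0.02 in *ilc-17.1* and 0.2497 in *nfki-1* mutants, and the folate transporter gene *folt-1*, at 5.40 to 6.72 FPKM, had -0.22 in *malt-1*, -0.06 in *ilc-17.1* and -0.31 in *nfki-1* mutants. *mthf-1*, methylenetetrahydrofolate reductase, which makes the methyl-folate that METR-1 consumes, had -0.04 in *malt-1*, 0.07 in *ilc-17.1* and -0.13 in *nfki-1* mutants. In the list of cysteine, sulfide and glutathione genes the largest ratios were those of *sqrd-1*, sulfide:quinone oxidoreductase, which oxidises hydrogen sulfide in mitochondria. *sqrd-1* had 12.1 FPKM in *malt-1* mutants against 24.4 FPKM in *npr-1* animals, 10.1 FPKM in *ilc-17.1* mutants against 24.8 FPKM in *npr-1* animals, and 14.8 FPKM in *nfki-1* mutants against 24.6 FPKM in *npr-1* animals, log2 ratios of -1.01 in *malt-1*, -1.29 in *ilc-17.1* and -0.73 in *nfki-1* mutants. *cbs-2*, a second cystathionine beta-synthase gene, had 0.45 in *malt-1*, 0.15 in *ilc-17.1* and 0.46 in *nfki-1* mutants, higher past the fold in *malt-1* and *nfki-1* mutants. As deposited, *cbs-1* had its own highest value in *malt-1* mutants and its lowest in *ilc-17.1* mutants, where *cbs-2* was also lowest of the 3 mutants. The 2 genes differed in *nfki-1* mutants, where *cbs-2* was about as high as in *malt-1* mutants. The log2 ratio of *cbs-1* was 0.13 in *nfki-1* against 0.36 in *malt-1* mutants.

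Of the regulators, *nhr-68* and *nhr-10* encode nuclear receptors that act in the transcriptional response to propionate in *C. elegans*, and NHR-114 has been linked to *metr-1* and *sams-1* expression under low B12. *nhr-68* had log2 ratios of 0.27 in *malt-1*, 0.41 in *ilc-17.1* and 0.10 in *nfki-1* mutants, and *nhr-114* had 0.03 in *malt-1*, -0.37 in *ilc-17.1* and -0.19 in *nfki-1* mutants. *nhr-10* had 0.04 in *malt-1*, 0.34 in *ilc-17.1* and 0.27 in *nfki-1* mutants, past the fold in *ilc-17.1* and *nfki-1* mutants. As deposited, *nhr-68* was thus higher past the fold in *ilc-17.1* mutants, at 201 FPKM against 151 FPKM in *npr-1* animals. *nhr-114* was lower past it, at 168 FPKM against 218 FPKM in *npr-1* animals. Equal sums would move both log2 ratios up by 0.17, which would put *nhr-114* inside the fold.

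**Figure D5:**
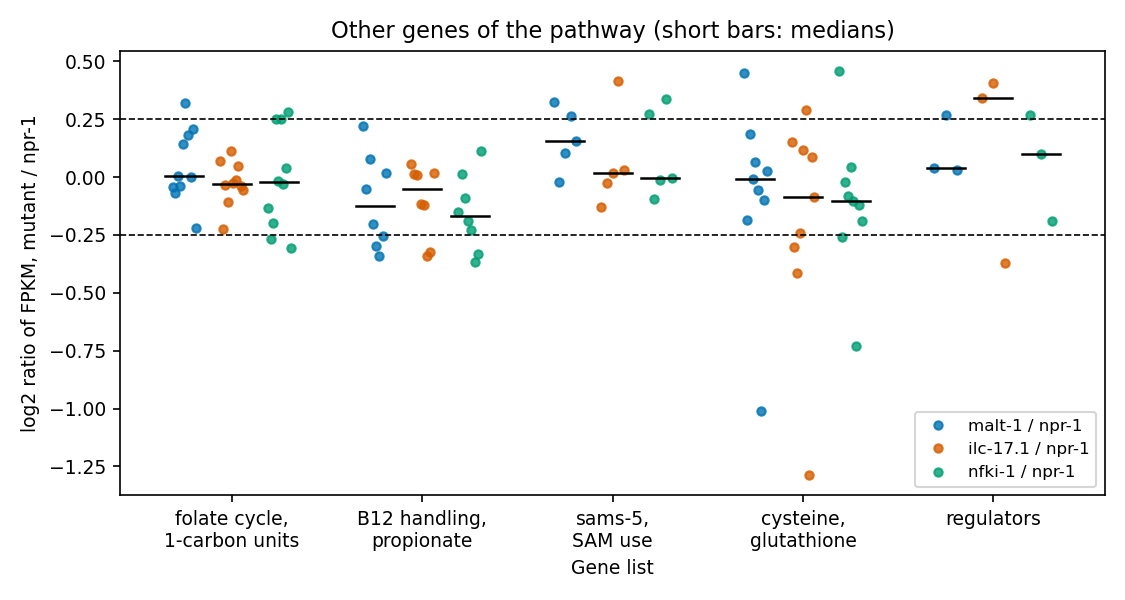
Log2 ratio of FPKM, mutant over *npr-1* animals, for the 35 listed pathway genes of at least 1 FPKM, by list. Points are genes, short bars are medians and dashed lines stand at -0.25 and 0.25. Most points lie inside the lines, and the lowest in each mutant is *sqrd-1* at -1.01 in *malt-1*, -1.29 in *ilc-17.1* and -0.73 in *nfki-1* mutants.

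Whole animals were sequenced, and fewer cells of a type and less RNA per cell cannot be told apart. The mutated genes went with the labels in 2 mutants: *malt-1* had 3.99 FPKM in *malt-1* mutants against 6.49 FPKM in *npr-1* animals, and *nfki-1* had 8.94 FPKM in *nfki-1* mutants against 24.1 FPKM in *npr-1* animals. *ilc-17.1* was below 1 FPKM in both *ilc-17.1* mutants (0.157) and *npr-1* animals (0.315), too low a level to check the label. Marker lists differed between genotypes as well, with counts given as deposited. Of all genes, 19.2% were higher and 15.1% lower past the fold in *malt-1*, 24.5% and 22.8% in *ilc-17.1*, and 26.1% and 20.8% in *nfki-1* mutants. All 6 yolk protein genes were higher past the fold in each mutant, with summed FPKM of 689 in *malt-1* mutants against 465 in *npr-1* animals, 1514 in *ilc-17.1* mutants against 471 in *npr-1* animals, and 1469.6 in *nfki-1* mutants against 469.6 in *npr-1* animals. Of 5 germ line genes, 3 were lower in *malt-1*, 4 in *ilc-17.1* and 3 in *nfki-1* mutants, with median log2 ratios of -0.31 in *malt-1*, -0.64 in *ilc-17.1* and -0.39 in *nfki-1* mutants. All 5 body wall muscle genes were higher in *ilc-17.1* mutants, 2 were in *nfki-1* and 1 in *malt-1* mutants. All 5 sperm genes were higher in *nfki-1* mutants, 2 were in *malt-1* and 1 in *ilc-17.1* mutants. Of 5 oocyte genes 4 were lower in *malt-1* mutants and 2 higher in *ilc-17.1* mutants. Of 6 neuronal genes 4 were lower in both *ilc-17.1* and *nfki-1* mutants and 1 in *malt-1* mutants. *unc-31* was higher in *malt-1* (log2 ratio 0.27) and *ilc-17.1* mutants (0.33). Equal sums would move the marker ratios by the shifts given above, so that some calls change. The 4 neuronal genes lower in *ilc-17.1* mutants, at -0.28 to -0.34, would then lie inside the fold. In *nfki-1* mutants *rab-3* (-0.26) and *ric-4* (-0.29) would do so, while *unc-119* (-0.35) and *egl-3* (-0.39) would stay past it. Of 5 hypodermis genes only *bli-1* and *col-19* were above 1 FPKM. *col-19* was lower in *malt-1* (log2 ratio -0.53) and *ilc-17.1* mutants (-0.30), and *bli-1* was higher in *ilc-17.1* mutants (0.30). Intestinal markers, 4 of 5 with a value and *ifb-2* at 0, stayed inside the fold as deposited. Under equal sums *pept-1* in *ilc-17.1* mutants (log2 ratio 0.15 as deposited) would be higher past it. The part of these differences in the ratios of the enzymes was not tested.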

How the data were processed

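From polyA RNA the authors prepared stranded libraries, trimmed reads with Trim Galore 0.4.3, aligned them with TopHat2 2.1.0 and quantified them with Cufflinks 2.2.1 and Cuffdiff, according to the methods and the submitters' processing notes. The genome build and annotation are not given in the sources used here. The authors deposited 1 table of FPKM values, 1 estimate per genotype in each of 7 comparisons, scaled within the comparison, with 0 columns of single samples. Its remaining columns hold their test statistics, fold changes, p-values and q-values, which were not used.

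Log2 ratios were taken without a pseudocount from the comparison that holds both genotypes, with Python 3.11.15, pandas 2.3.3 and numpy 2.4.6. The calculation was tested on simulated data. Coordinates are the loci of the table, counted from 1. Names, strand and biotype come from the Ensembl release 115 annotation. For *sams-1* the annotated gene extends over 100 bases beyond the locus in the table. All 10 enzymes are reported, and of each pathway list the 2 genes with the largest ratios among those past the fold. Further listed genes (*acdh-1*, *pmt-1*, *pmt-2*, *mthf-1*, *nhr-10*, *folr-1*, *gldc-1*, *dhfr-1*) were chosen after their values were seen. Equal FPKM sums, shares among genes of at least 100 FPKM, and shares without genes at 0 in the mutant were alternatives chosen after seeing the data. The enzymes, lists and thresholds were chosen with earlier results of these data known. Pooled samples of 1 genotype were not regrouped, and no sequence is shown.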

Additional observations from a re-analysis of the deposited data

How the results depend on the processing

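The table has no values per sample, so no replicate could be left out, no depth or precision is known, and small ratios cannot be told from replicate spread. No paired analysis was possible because the table has no columns of single samples. A minimum log2 ratio of 0.5 gave 0 enzymes past the fold in all 8 counts above 0, though *metr-1* in *ilc-17.1* mutants lies at that line, with a log2 ratio of 0.499, or 0.512 with FPKM averaged over all comparisons. Equal FPKM sums gave, higher and lower, 3 and 0 enzymes in *ilc-17.1* and 4 and 0 in *nfki-1* mutants against *npr-1* animals (beside 41.0% and 34.4% of all genes higher). In *ilc-17.1* against *malt-1* mutants the counts were 3 and 0, beside 37.4% of all genes higher and 10.1% lower. In *nfki-1* against *malt-1* mutants they were 1 and 0, beside 28.4% and 8.88%. In *nfki-1* against *ilc-17.1* mutants they were 0 and 1, beside 15.2% and 24.3%. The medians of the enzymes were then 0.21 (*ilc-17.1* against *npr-1*), 0.23 (*nfki-1* against *npr-1*), 0.20 (*ilc-17.1* against *malt-1*) and 0.14 (*nfki-1* against *malt-1*). The count of enzymes lower in *nfki-1* against *ilc-17.1* mutants was 1 (*metr-1*) when the median of all genes was subtracted and when FPKM was averaged over all comparisons. That average also put *mtrr-1* past the fold in *nfki-1* mutants. Besides equal sums, single ratios moved by at most 0.03 and medians by at most 0.02. Of 84 alternative counts 67 stayed within 1.5-fold, and of 31 alternative medians 27 moved by under 0.1. Most of these alternatives shift the ratios by little or not at all, so the totals are no measure of robustness. The minimum of 0.5 moved 8 of 12 counts. Equal sums moved 7 of 12 counts and 4 of 6 medians. The 67 include 12 counts with a minimum of 5 FPKM and 12 with values above 0 in both genotypes. Those settings could not change a count, because all 9 enzymes with a value lie at 10.5 FPKM or more.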
